A study of Mus musculus with 2 samples.

Results

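The histone genes described here are the 67 protein-coding genes of the GENCODE vM21 annotation whose name starts with Hist, out of 21728 protein-coding genes on the autosomes and X. They comprised 6 H1, 18 H2A, 18 H2B, 12 H3 and 13 H4 genes, and they lay on 4 chromosomes of the mm10 genome. EP300, a coactivator that acetylates histones, had been mapped by chromatin immunoprecipitation and sequencing in 1 group of 2 libraries. Both were made with an EP300 antibody from liver of strain B6NCrl embryos of 14.5 days, with males and females mixed and the pulverized livers of several dissections pooled. No other tissue, age or treatment was compared, and both libraries carry the same biosample label, so the spread between them may be technical. Read totals are not in the files used here, so the depth is unknown.

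Replication-dependent histone genes supply the H2A, H2B, H3 and H4 proteins that form the nucleosome core and the H1 proteins that bind the DNA between nucleosomes. They are transcribed mainly in S phase, their mRNAs end in a stem-loop instead of a poly(A) tail, and many H2A and H2B genes stand head to head around a shared promoter. H4 promoters carry a site for the zinc finger protein HINFP, which works with the coactivator NPAT, whereas H2B promoters are known for the octamer bound by POU2F1 (Oct-1), and H1 promoters for a distal AC box. At this age the liver is a main site of red cell formation, with many dividing erythroid precursors. In the optimal list, 4 of 5 erythroid marker genes and 0 of 5 hepatocyte marker genes had a peak within 1 kb of a transcription start site (TSS), where 15.5% of all coding genes had one. Within 20 kb it was 5 of 5 erythroid and 4 of 5 hepatocyte marker genes, against 38.6% of all coding genes. Cell type proportions were not measured.

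The sequences printed first are the promoters of H4 genes around the HINFP core GGTCCG. Whether this core bears on the EP300 signal was not tested. Each of the following runs gives 44 bases 5′ to 3′ in the direction of the gene, from RefSeq on GRCm38.p6, with the core and any TATAA that follows it in capitals. Of the 12 H4 genes in the promoter table, 11 held the core on the coding strand, and in 9 of these TATAA followed within the window.
Hist1h4f: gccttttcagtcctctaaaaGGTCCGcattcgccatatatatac
Hist1h4d: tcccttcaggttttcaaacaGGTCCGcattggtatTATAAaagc
Hist1h4c: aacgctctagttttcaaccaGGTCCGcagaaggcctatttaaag
Hist1h4b: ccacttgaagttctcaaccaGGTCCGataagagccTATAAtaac
Hist1h4h: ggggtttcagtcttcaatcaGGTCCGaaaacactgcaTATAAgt
Hist1h4k: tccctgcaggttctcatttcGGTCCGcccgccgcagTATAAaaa
Hist1h4i: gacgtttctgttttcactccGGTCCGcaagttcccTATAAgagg
Hist4h4: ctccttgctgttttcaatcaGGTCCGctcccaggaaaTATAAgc
Hist1h4j: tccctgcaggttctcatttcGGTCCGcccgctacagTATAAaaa
Hist1h4m: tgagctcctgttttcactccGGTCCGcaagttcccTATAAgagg
Hist1h4n: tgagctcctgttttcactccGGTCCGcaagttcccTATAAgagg
The 9 runs from Hist1h4f to Hist1h4j belong to genes with an EP300 peak, in the order of its signal, and the last 2, from Hist1h4m and Hist1h4n, to genes without one.

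Whole RefSeq promoters (250 bases before the start and 50 after it) follow for the H4, H1, H2B and H3 genes with the strongest peak of their own, and for the testis gene Hist1h1t, which had none within 1 kb. The Hist1h2bk promoter is also that of Hist1h2ah, the H2A gene with the strongest peak within 1 kb, which is transcribed the other way. Capitals mark each match to a motif searched on both strands: the HINFP core GGTCCG, the CCAAT box, the TATA box TATAA, the octamer ATTTGCAT, the AC box AAACACA, the E2F site TTTCGCGC with its variant form TTTGGCGC, the GC box GGGCGG, the CACCC box CCACCC, the CRE TGACGTCA, the E-box CACGTG, and the GATA site, which is GATA with A or T before it and A or G after it. Matches to different motifs may overlap.
Hist1h4f, chr13:23551619-23551918, minus strand: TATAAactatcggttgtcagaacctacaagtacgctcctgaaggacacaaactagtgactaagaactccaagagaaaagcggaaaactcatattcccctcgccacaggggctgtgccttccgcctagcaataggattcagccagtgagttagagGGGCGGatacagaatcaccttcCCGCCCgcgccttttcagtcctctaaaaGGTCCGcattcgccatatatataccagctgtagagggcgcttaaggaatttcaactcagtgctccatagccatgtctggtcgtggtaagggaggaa
Hist1h1c, chr13:23738557-23738856, plus strand: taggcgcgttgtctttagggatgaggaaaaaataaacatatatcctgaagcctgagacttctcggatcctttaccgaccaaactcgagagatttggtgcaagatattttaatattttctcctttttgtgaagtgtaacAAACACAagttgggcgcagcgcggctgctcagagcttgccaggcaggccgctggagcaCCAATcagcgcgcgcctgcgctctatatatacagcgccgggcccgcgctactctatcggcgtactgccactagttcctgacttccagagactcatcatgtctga
Hist1h2bk, chr13:22035571-22035870, plus strand: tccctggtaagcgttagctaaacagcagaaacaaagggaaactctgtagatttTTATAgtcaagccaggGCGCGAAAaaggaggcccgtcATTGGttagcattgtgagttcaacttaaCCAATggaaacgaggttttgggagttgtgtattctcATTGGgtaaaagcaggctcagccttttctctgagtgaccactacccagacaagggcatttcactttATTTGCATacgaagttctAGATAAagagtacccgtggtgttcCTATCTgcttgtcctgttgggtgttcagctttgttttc
Hist1h3c, chr13:23745472-23745771, minus strand: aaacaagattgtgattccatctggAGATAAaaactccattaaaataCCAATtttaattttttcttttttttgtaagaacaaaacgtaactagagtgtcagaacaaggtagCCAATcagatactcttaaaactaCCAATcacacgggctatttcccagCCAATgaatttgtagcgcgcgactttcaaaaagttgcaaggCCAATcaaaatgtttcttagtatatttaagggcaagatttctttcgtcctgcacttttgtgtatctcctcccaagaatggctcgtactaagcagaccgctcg
Hist1h1t, chr13:23695561-23695860, plus strand: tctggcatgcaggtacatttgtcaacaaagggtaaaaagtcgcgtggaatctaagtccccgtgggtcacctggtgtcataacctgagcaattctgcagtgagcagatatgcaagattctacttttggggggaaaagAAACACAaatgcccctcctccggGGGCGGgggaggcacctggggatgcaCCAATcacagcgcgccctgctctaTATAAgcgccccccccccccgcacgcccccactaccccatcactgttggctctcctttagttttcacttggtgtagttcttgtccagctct
Relative to the RefSeq start, the HINFP core of Hist1h4f began at -46, the AC box of Hist1h1c at -112 and the octamer of Hist1h2bk at -30. The Hist1h3c promoter held CCAAT 5 times, and that of Hist1h1t held an AC box at -114, CCAAT at -65 and TATAA at -41.

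EP300 lay at most histone promoters. An optimal peak, that is, a peak of the authors' less strict list of reproducible peaks, had its summit within 1 kb of a TSS of 51 of the 67 histone genes, or 76.1% (95% Wilson interval, 64.7 to 84.7%), whereas 15.5% of all coding genes had one. Within 20 kb the share was 59 of 67, or 88.1% (78.2 to 93.8%), against 38.6% of all coding genes. As many top peaks of library 1 alone gave 53 of 67 (79.1%) against 17.8% of all coding genes, and those of library 2 alone gave 53 of 67 against 17.1%. The genes lay in 7 groups and share peaks, so these genes are not independent, and the intervals cover counting error only.

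The 51 genes shared 70 distinct peaks within 1 kb, and 32 further peaks lay 1 to 20 kb away. At least 2 peaks lay within 1 kb of 32 of the 51 genes (62.7%), against 871 of the 3365 coding genes with a peak (25.9%). Histone genes lie close together, and this count includes peaks that are nearer to a neighbouring histone gene. For instance, 3 peaks lay within 1 kb of Hist1h3a, and 1 of them was nearest to it. The median signal of the strongest peak within 1 kb was 65.9 over the 51 histone genes and 36.0 over those 3365 genes; signal is the peak caller's value, and each list has its own scale. Of the 70 peaks, 53 had a summit within 100 bp in both library lists (75.7%; 64.5 to 84.2%), against 71.2% of all peaks within 1 kb of a coding TSS and 84.3% of all optimal peaks. The genes on either side of the 1 kb limit were Hist1h2af, with its summit at 981 bp, and Hist2h3c2, at 1284 bp.

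The H4 genes carried the strongest peaks. Each of the 10 H4 genes with a peak had a signal of at least 127.5, and the strongest peak nearest to each of the 32 other histone genes reached at most 106.1, so the groups did not overlap. The median was 149.5 over the 10 H4 genes and 59.6 over the 32 others. The order was Hist1h4f (204.4), Hist1h4d (193.3), Hist1h4c (176.6), Hist1h4b (158.7), Hist1h4h (158.4), Hist1h4k (140.6), Hist1h4i (136.3), Hist1h4a (135.0), Hist4h4 (131.7) and Hist1h4j (127.5). By the strongest peak within 1 kb, whichever gene it is nearest to, 354 of 3365 coding genes with a peak (10.5%) reached the signal of the lowest of these H4 genes. By that measure 11 of the 51 histone genes (21.6%) did so, and the one that is not an H4 gene was Hist1h3a, through the peak of Hist1h4a. Translated from the GENCODE transcripts, all 13 H4 genes encode 1 identical protein of 103 residues.

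**Figure D1:**
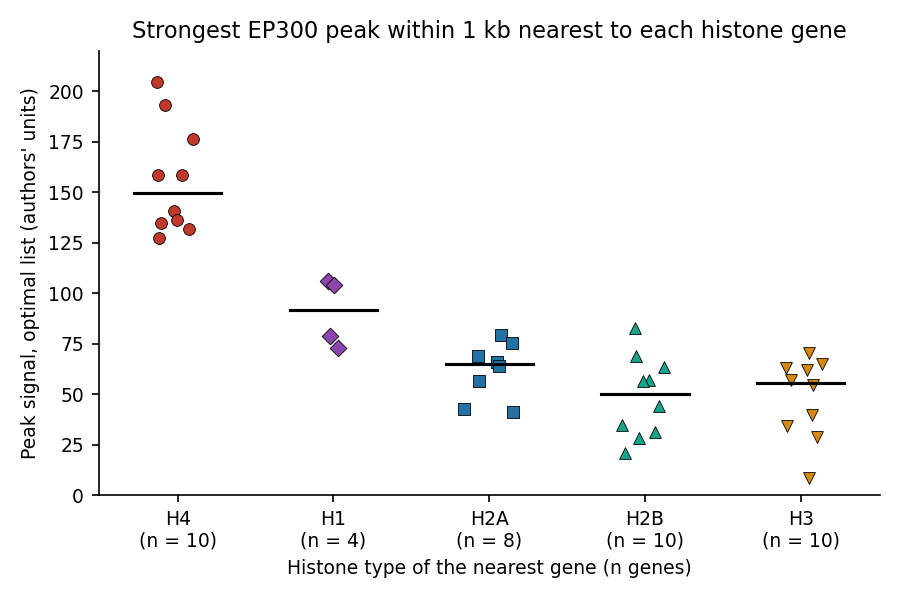
Signal in the optimal list (vertical axis, the authors' units) of the strongest EP300 peak within 1 kb that is nearest to each histone gene, by histone type; each point is a gene and each bar a median. The 10 H4 genes sit between 127.5 and 204.4, and the 32 genes of the other types at 106.1 or lower.

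The libraries taken one at a time gave nearly the same split. Hist1h4f had a signal of 103.8 in library 1 and 98.7 in library 2, and Hist1h4d had 109.5 and 83.5. At the lower end, Hist1h4a had 74.6 and 61.1, Hist4h4 had 69.8 and 61.3, and Hist1h4j had 67.8 and 62.0. In library 1 the same peaks ran from 67.2 to 109.5 for H4 genes and from 6.75 to 70.1 for the others, where Hist1h1c (70.1) passed the lowest H4 genes. In library 2 they ran from 61.1 to 98.7 for H4 genes and from 6.32 to 61.7 for the others, where Hist1h1b (61.7) did so. The 2 genes that crossed into the H4 range were thus both H1 genes, a different one in each library.

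**Figure D2:**
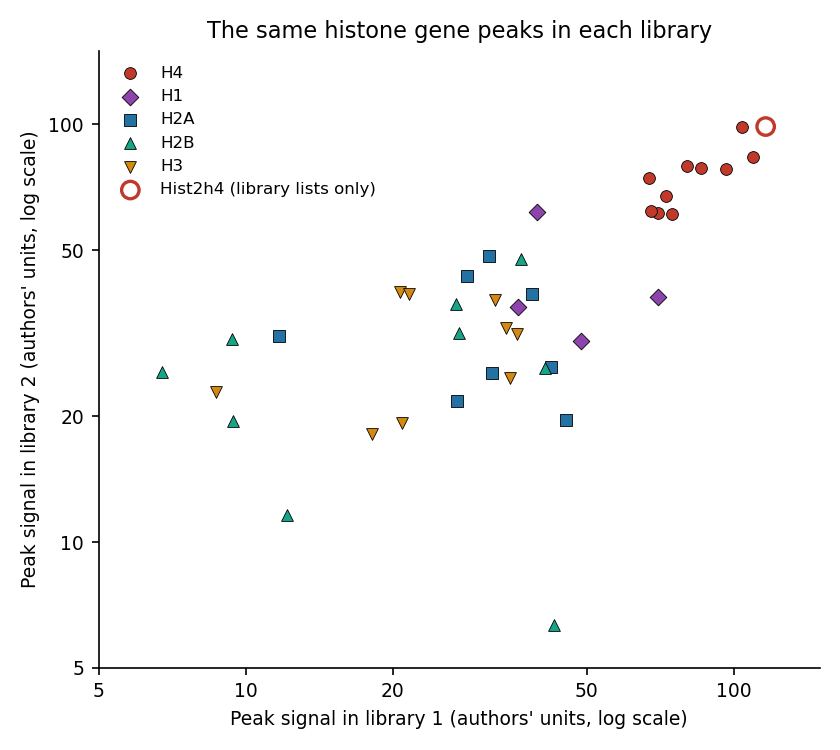
Peak signal in library 1 (horizontal, log scale) against library 2 (vertical, log scale) for the strongest peak nearest to each histone gene, where both library lists hold it; the open circle is Hist2h4, taken from the library lists. H4 genes occupy the upper right corner, at 67.2 or more in library 1 and 61.1 or more in library 2.

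The strongest peak of each of the 10 H4 genes lay on the upstream side of the GENCODE TSS, with a median summit of -51.5 bp and a range of -223 to -5 bp. Of all 20 peaks within 1 kb that were nearest to an H4 gene, the weaker ones included summits downstream, from 357 bp at Hist1h4k to 925 bp at Hist1h4c. For the 9 H4 genes with a peak and a core in the table, the summit lay a median of 4 bp from the first base of GGTCCG, between -6 and 39 bp. Hist1h4f had it at -3 bp, in a peak at chr13:23551617-23551814, Hist1h4d at -1 bp, and Hist4h4, the lone histone gene on chromosome 6, at 39 bp. The side of the TSS depends on the start used. Hist1h4b had the core 6 bp after the RefSeq start and the summit 19 bp past the core's first base. Its summit was thus downstream of that start, as were those of Hist1h4h and Hist4h4 relative to their RefSeq starts. Hist1h4a had no GGTCCG in the table's promoter, and its summit lay farthest upstream, at -223 bp. Hist1h4j and Hist1h4k have promoters that are copies of each other at over 95% identity (96.3% at the least), so reads may not have been told apart between them.

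The 4 H1 genes with a peak had the next highest median of own peaks, 91.6, against 65.0 over 8 H2A, 55.7 over 10 H3 and 50.3 over 10 H2B genes, but their range overlapped that of H2A and H2B genes. Own peaks leave out a shared peak that lies nearer to another histone gene, so the order of H2A and H2B depends on this rule. By the strongest peak within 1 kb, shared or not, the median was 56.6 over 13 H2A and 56.6 over 14 H2B genes. It was then 58.2 over the 10 H3 genes and still 91.6 over the H1 genes. Hist1h1c had 106.1 in the optimal list, in a peak at chr13:23738767-23738908, with 70.1 in library 1 and 38.6 in library 2. Hist1h1b had 104.1, with 39.6 in library 1 and 61.7 in library 2, so the libraries ranked this pair in opposite order. Hist1h1e had 79.1 (48.7 in library 1 and 30.2 in library 2), and Hist1h1a had 73.0 (36.1 and 36.6). These linker histone genes each had the summit within 34 bp of the TSS. The 6 H1 genes encode 6 different proteins.

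**Figure D3:**
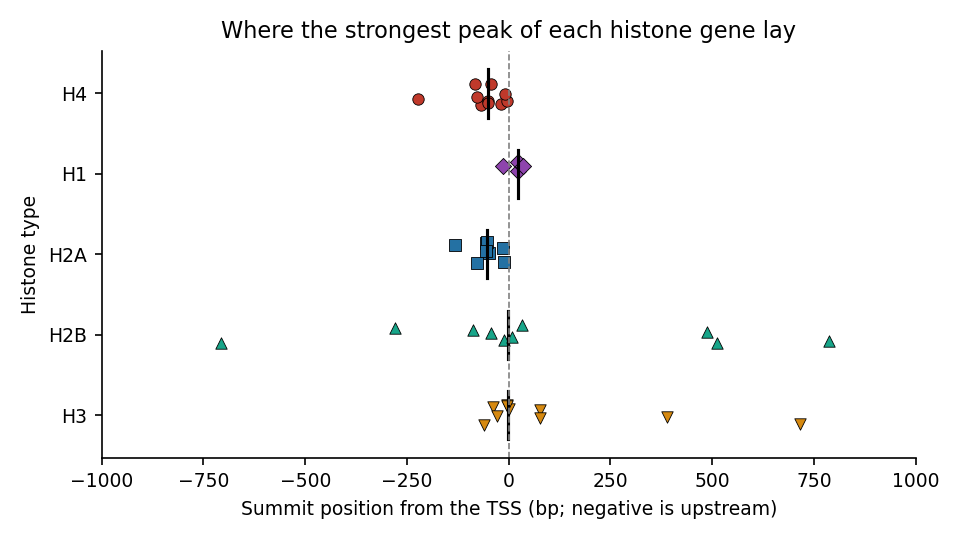
Position of the summit of each gene's strongest own peak within 1 kb relative to its TSS (horizontal, bp, negative upstream), by histone type; bars are medians. The 10 H4 and 8 H2A summits are all upstream of the GENCODE TSS used here, while those of H2B and H3 genes spread to both sides. With RefSeq starts some of these summits, such as that of Hist1h4b, lie downstream. A summit between divergent TSSs is upstream of both genes and was given to the nearer one. The H2A and H2B positions therefore depend on this rule, which left Hist1h2bn with a summit at 786 bp and Hist1h2bc with one at 511 bp.

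H2A and H2B genes largely shared peaks. There were 13 divergent pairs with TSSs at most 1 kb apart, 12 of an H2A and an H2B gene and 1 of an H2B and an H3 gene, with a median of 268 bp between the TSSs. In 10 pairs a summit lay between the TSSs, with signals from 33.6 to 82.6. The strongest was that of Hist1h2ah and Hist1h2bk at chr13:22035709-22035860, with 82.6 in the optimal list, 36.7 in library 1 and 47.5 in library 2. Hist1h2bh and the H3 gene Hist1h3f followed with 69.2 (26.9 in library 1 and 37.1 in library 2), and Hist1h2ak and Hist1h2bn with 69.0 (28.4 and 43.3). Hist1h2bf and Hist1h2ad shared a peak of 65.9 (42.2 in library 1 and 26.2 in library 2). The 3 pairs without a peak were Hist1h2bq with Hist1h2ao, Hist1h2ap with Hist1h2br, and the testis pair Hist1h2ba with Hist1h2aa. A peak between divergent TSSs cannot be assigned to 1 gene of the pair.

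Outside the pairs, Hist3h2a had 79.3 in the optimal list (31.5 in library 1 and 48.4 in library 2) and Hist1h2ab had 75.2 (38.7 and 39.2). The other gene of the chromosome 11 group, Hist3h2ba, had 21.1 (12.2 and 11.6). Of the H2B genes that belong to no pair, Hist1h2bm was the highest, with 63.5 (41.1 in library 1 and 26.1 in library 2). Of the histone genes whose own strongest peak was in both library lists, Hist1h2bb showed the widest ratio between the libraries, with 42.9 in library 1 and 6.32 in library 2. In the group of 5 genes on chromosome 13, Hist1h2ag and Hist1h2bj shared a peak of 56.6 (9.37 in library 1 and 30.6 in library 2), next to Hist1h4i with 136.3.

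Of the 12 H3 genes, 10 had a peak within 1 kb. Hist1h3c had 70.2 (32.4 in library 1 and 38.0 in library 2), Hist1h3i had 64.7 (34.1 and 32.5), and Hist1h3f had 63.0 from its own peak. Hist1h3a lay within 1 kb of the 135.0 peak of Hist1h4a, 933 bp downstream of its own TSS, while the peak nearest to Hist1h3a had 57.0. The weakest was Hist2h3c1, with 8.51, at rank 16630 of the 17055 optimal peaks and 716 bp downstream of the TSS. This peak had 7.86 in library 1 and no summit within 100 bp in the library 2 list, and it was not in the conservative list.

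Of the 16 histone genes without an optimal peak within 1 kb, 9 had a promoter with a near-identical copy elsewhere in the genome, at 98.6 to 100% identity over at least 150 bases. These were Hist1h2bq, Hist1h2ao, Hist1h4m, Hist1h4n, Hist1h2ap and Hist1h2br, which form an inverted duplicate on chromosome 13, and Hist2h3c2, Hist2h2aa2 and Hist2h2aa1 on chromosome 3. Of the 51 genes with a peak, 3 had a promoter copy at 95% identity or more, at 96.3 to 99.7% (Hist1h4j, Hist1h4k and Hist2h3c1). Of the 70 peaks within 1 kb, 5 had a copy of the bases within 100 bp of the summit, at 96.5 to 100% identity. They were nearest to Hist1h2bm, Hist1h4j, Hist1h4k, Hist1h3b and Hist2h2ac. The one nearest to Hist2h2ac, with a signal of 11.3, was the only peak within 1 kb of Hist2h2ab. Reads from copies map to more than 1 place, and how the authors handled them is not given in the sources used here, so these 9 genes cannot be read as free of EP300. The part of the copies in the missing peaks was not tested.

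A further 3 of the 16, Hist2h4, Hist2h3b and Hist2h2bb, had a peak within 1 kb in each library's own list. Hist2h4 had a signal of 116.2 in library 1, at chr3:96263281-96263480, and 98.8 in library 2, at chr3:96263308-96263430. The first was above that of every other histone gene in library 1, where Hist1h4d was next with 109.5, and the second was level with the highest in library 2, 98.7 at Hist1h4f. Its summits lay 55 bp upstream of the TSS in library 1 and 41 bp upstream in library 2. Hist2h2bb had 24.6 in library 1 and 48.7 in library 2, and Hist2h3b had 17.5 and 32.4. The pooled list used here, from which the optimal list was drawn, had no summit between positions 96255748 and 96278127, a stretch of 22.4 kb that held 14 summits of library 1 and 11 of library 2. Of 11534 top peaks shared by both libraries, 13 (0.113%) had no pooled summit within 500 bp. What set this stretch apart was not tested. With Hist2h4, 11 of the 13 H4 genes had a peak of at least 67.2 in library 1 and 61.1 in library 2, and Hist1h4m and Hist1h4n, which are copies of each other, were the others.

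For Hist1h1d the annotations place the start differently. The RefSeq start lies 1770 bp downstream of the GENCODE TSS, and a peak of 101.0 (36.9 in library 1 and 63.1 in library 2) lay 35 bp downstream of the RefSeq start, in an exon of the gene at chr13:23555016-23555182. Its signal was in the range of the other H1 genes.

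The remaining 3 are the testis genes. Hist1h1t, the testis H1 gene, lay 1715 bp from the nearest optimal summit, which belonged to a peak of 35.2 beside Hist1h4c. Hist1h2ba and Hist1h2aa, the divergent testis H2B and H2A genes, lay 20027 and 20333 bp from one. Library 1 had no summit within 1 kb of any of the 3, and library 2 had entries there no stronger than rank 195820 of 300000.

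The number of promoters with an optimal peak was counted for each group of genes along the chromosomes. On chromosome 13, 27 of the 29 genes from Hist1h4h to Hist1h1a, 5 of the 5 from Hist1h2ah to Hist1h2bj, 12 of the 18 from Hist1h2bl to Hist1h2br and 0 of the 2 testis genes had one within 1 kb. On chromosome 3 it was 4 of 10, on chromosome 11 2 of 2, and on chromosome 6 Hist4h4 alone. The 6 genes without a peak in the group of 18 all have copied promoters. Of the 6 on chromosome 3, 3 have copied promoters and the other 3 lie in the stretch without pooled summits and had peaks in both library lists, so these group counts do not compare the groups on an equal footing. The 1487.8 kb between the histone groups that end at Hist1h2bj and begin at Hist1h4h held 39 other coding genes, 35 of them vomeronasal receptor genes (Vmn1r). Of these 39, 1 had a peak within 1 kb (Abt1), and of the Vmn1r genes 0 did. Within the largest group the iron regulator Hfe had none.

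**Figure D4:**
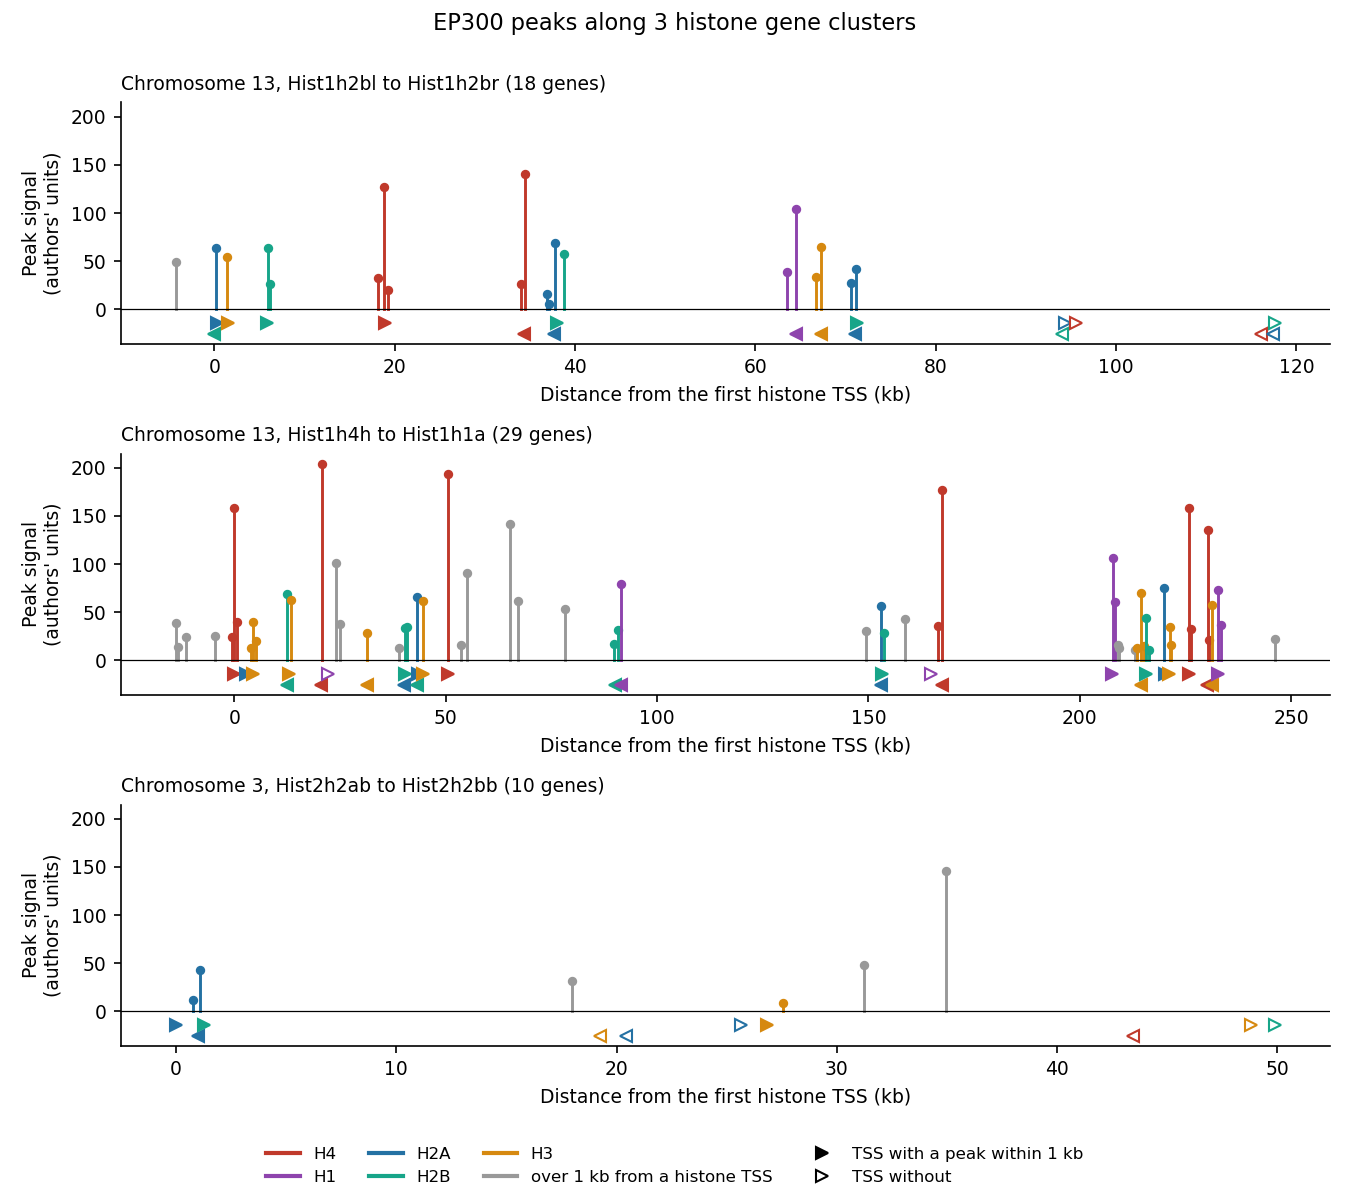
Signal of each optimal peak (vertical, authors' units) against distance from the first histone TSS (horizontal, kb) in 3 groups of histone genes; colours give the type of the nearest histone gene, grey peaks lie over 1 kb away, and arrowheads mark TSSs by strand, open where no peak lay within 1 kb. The tallest lines on chromosome 13 are H4 peaks up to 204.4, and on chromosome 3 the tallest is a grey peak of 145.3.

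The promoters differed by type in the motifs they held, counted here in 300 bases around each GENCODE TSS (250 before, 50 after). The HINFP core GGTCCG was in 12 of 13 H4 promoters (92.3%; 66.7 to 98.6%) against 9.66% of all coding promoters, and in 0 of 6 H1, 0 of 18 H2A, 1 of 18 H2B and 2 of 12 H3 promoters. CCAAT was in all 18 H2A and all 18 H2B promoters, many of which overlap, in 11 of 12 H3, 5 of 6 H1 and 4 of 13 H4 promoters, against 38.9% of all coding promoters. The octamer ATTTGCAT was in 7 of 18 H2A and 8 of 18 H2B promoters and in no other histone promoter, against 1.59% of all. In Hist1h2ah, Hist1h2ae, Hist1h2ac, Hist1h2aa and Hist2h2ac it was the same bases as the octamer of the H2B gene in their divergent pair. Of the H2A genes, only Hist3h2a and Hist1h2ab held an octamer of their own. The AC box was in 4 of 6 H1, 3 of 18 H2B, 1 of 18 H2A, 1 of 12 H3 and 0 of 13 H4 promoters, against 6.44% of all. Hist1h1d was counted here without an AC box or CCAAT. Its RefSeq promoter, which starts elsewhere, held an AC box at -122 and CCAAT at -51. TATAA was in 52 of 67 histone promoters (77.6%), against 22.9% of all, and the E-box CACGTG in 0 of 67, against 7.81%. The base composition also differed, with a median of 45.3% G and C in histone promoters and 55% in all coding promoters. Its part in the motif shares was not tested. A match is a description and does not show that a factor bound there.

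**Figure D5:**
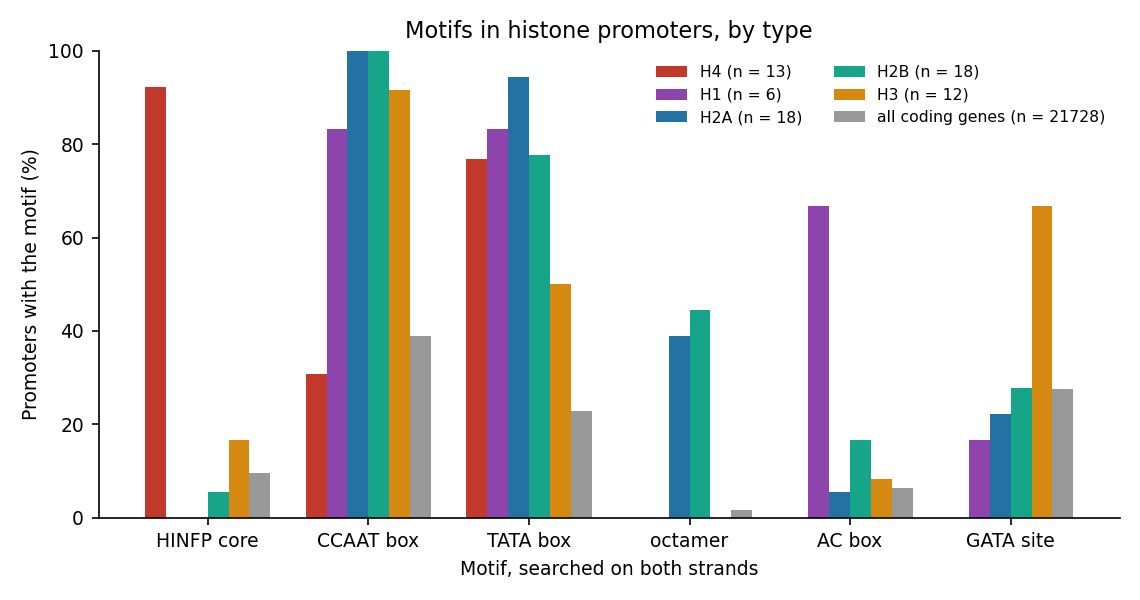
Share of promoters (vertical, %) with each motif (horizontal), searched on both strands in 300 bases around the TSS, for each histone type and for all coding genes. The HINFP core stands at 92.3% for H4 against 9.66% for all coding genes, and CCAAT at 100% for H2A and H2B.

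GATA sites, the motif of the erythroid factor GATA1, were less frequent at the histone promoter peaks than at promoter peaks in general. Within 100 bp of the summit, 17 of the 70 peaks had one (24.3%; 15.8 to 35.5%), against 38.3% of peaks within 1 kb of any coding TSS and 74.7% of all optimal peaks. Among peaks nearest to an H4 gene it was 2 of 20, both weak, with signals of 19.1 beside Hist1h4i and 35.2 beside Hist1h4c. For the other types it was 6 of 15 (40.0%) at H2B, 4 of 12 (33.3%) at H2A, 2 of 7 (28.6%) at H1 and 3 of 16 (18.8%) at H3. Among the 32 peaks 1 to 20 kb from a histone TSS it was 18 (56.2%; 39.3 to 71.8%). In the 300-base promoters themselves, placed by the GENCODE TSS, a GATA site was in 18 of 67 histone genes (26.9%), close to the 27.5% of all coding genes, with 8 of 12 among H3 promoters and 0 of 13 among H4 promoters. The H4 count depends on the start used. In the RefSeq promoters Hist1h4d held a GATA site at -239 and Hist4h4 held one at -249.

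These 32 more distant peaks had a median signal of 31.5, and 24 of them had a histone gene as the nearest coding gene. The strongest, with 177.5, lay 90 bp from the TSS of the neighbouring gene Rnf187. A peak of 145.3 with a GATA site (67.8 in library 1 and 74.5 in library 2) lay 8119 bp downstream of Hist2h3c1 at chr3:96254721-96254875. A peak of 141.5, also with a GATA site (67.3 in library 1 and 73.4 in library 2), lay 14576 bp downstream of the Hist1h4d TSS at chr13:23596078-23596243, in an intron of Hist1h2be. The peak of 101.0 beside the RefSeq start of Hist1h1d is also counted among the 32, as it lay 1805 bp from the GENCODE TSS. A peak of 91.0 without a GATA site lay 4426 bp downstream of the Hist1h4d TSS, also in an intron of Hist1h2be.

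Other genes of the histone pathway were counted the same way. Of 14 variant histone genes, which fall outside the naming rule and are mostly expressed through the cell cycle, 6 had a peak within 1 kb (background 15.5%), with a median strongest signal of 42.3. They were H2afx, the H2A variant phosphorylated at DNA breaks (92.1), the H3.3 genes H3f3b (86.1) and H3f3a (47.2), H2afv (37.4), H2afj (31.0) and H2afz (25.4). H2afj neighbours Hist4h4, whose 131.7 peak lay within 20 kb of it. Within 20 kb the strongest signals were 238.9 at H2afx, 196.2 at H3f3b and 176.0 at H3f3a. H1f0, H1fx, H1foo, H1fnt, Hils1, H2afy, H2afy2 and Cenpa had none within 1 kb. Of 12 genes for histone gene transcription and mRNA processing, 5 had one. They were Slbp, which encodes the stem-loop binding protein (76.1), Hinfp (48.1), the cleavage factor gene Cpsf2 (38.4), Pou2f1 (24.4) and Zfp473, whose human counterpart takes part in histone pre-mRNA processing (12.1). Within 20 kb the strongest were 143.4 at Hinfp, 117.4 at Zfp473 and 76.1 at Slbp. Npat, Casp8ap2, Lsm10, Lsm11, Eri1, Cpsf3 and Sympk had none within 1 kb. Of these, Lsm10 (42.5), Cpsf3 (41.0) and Eri1 (34.8) had one within 20 kb, and the nearest summit to Npat was 88619 bp away. Of 6 histone chaperone genes, the H3.3 chaperone gene Hira (50.1) and Chaf1a, for a subunit of chromatin assembly factor 1 (41.8), had one, and Nasp, Asf1a, Asf1b and Chaf1b did not.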

How the data were processed

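The authors deposited peak lists on mm10 for each library, for both pooled, and 2 lists of reproducible peaks (irreproducible discovery rate, IDR), optimal with 17055 peaks and conservative with 15728. The deposited listings name 1 control file for each library and both for the pool. Aligner, peak caller and threshold are not named in any source used here. The authors' deposited signal is a value that the caller gave each peak; the IDR score they deposited was not used. Read totals are absent from the lists, so precision is that of counts.

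Members and lists were chosen with earlier results of these data known. Every member could be named; described in full were, for each type, the members with the strongest peaks, all members without a peak, the 3 strongest pairs and the small groups. Promoters were to be printed for the member of each type with the strongest peak within 1 kb. For H3 that is Hist1h3a, through the peak of Hist1h4a; it had no entry in the promoter table, and Hist1h3c, the H3 gene with the strongest peak of its own, is printed. Rnf187, Abt1 and Hfe were named after their values were seen. GENCODE vM21 TSSs on the autosomes and X were used, with 17043 optimal peaks; 61 of 67 members matched the RefSeq promoter table (GRCm38.p6). Library peaks were matched within 100 bp, each peak being counted once and given to the nearest histone TSS. Genes at most 100 kb apart formed a group. Copies were hits of at least 150 bases at 95% identity (blastn 2.17.0). Shares have 95% Wilson intervals; no test was run, as there is 1 group. Scripts used Python 3.11.15, pandas 2.3.3 and pysam 0.24.0 and were tested on simulated data.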

Additional observations from a re-analysis of the deposited data

How the results depend on the processing

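No paired analysis was possible because both libraries belong to 1 group. The 51 genes with a peak within 1 kb, and the 59 within 20 kb, stayed within 1.5 times under every alternative tried for them. These were the conservative list, stronger optimal peaks, the top of the pooled list, each library alone, other windows and start sites, and each peak given to its nearest coding TSS. With optimal peaks above the median signal, distinct peaks fell to 38 within 1 kb (70 in the whole list) and to 50 within 20 kb (102 in the whole list). The median signal percentile of the peaks within 1 kb, 52.3 among all optimal peaks, was 49.8 in the conservative list, 41.5 among peaks above the median and 54.7 in the pooled list. It was 53.5 to 56.6 with 1 library left out, 62.0 without peaks within 500 bp of a stronger one and 67.8 in a window of 500 bp. The share with a GATA site was 12.9% within 50 bp of the summit, a window that holds fewer bases. The H4 comparison and RefSeq starts were added after seeing the data. By own peaks, 10 of 10 H4 genes with a peak exceeded every other histone gene, 9 of 11 in library 2 alone and 8 of 11 in library 1 alone. By the strongest peak within 1 kb, shared or not, 3 of the 10 were at or below the 135.0 of Hist1h3a. By that measure 5 of 11 in the whole library 1 list and 3 of 12 in that of library 2 were at or below the highest other gene. RefSeq starts also gave 51 genes, with Hist1h1d gained and Hist1h2af lost. Unknown depth limits what a missing peak can show.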
